A study of Mus musculus with 25 samples.

Results

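The comparison set the livers of sorafenib-treated, carcinogen-exposed mice (group DEN_SOR) against livers of saline-injected mice (group Untreated), and asked which changes of the carcinogen were still present after the drug. Its members were chosen by the library names in the labels, and they were 9 of the 25 libraries of the series, namely 4 DEN_SOR and 5 Untreated. The 6 libraries of the carcinogen without a drug (group DEN) served as the intermediate step. The labels describe all animals as C3H/HeJ males, an inbred strain prone to liver cancer, entering the study at 5 weeks of age. DEN_SOR and DEN mice were injected intraperitoneally with 25 mg/kg of diethylnitrosamine 2 times a week, in 5 cycles of 3 weeks of injections and a week of rest, over 4 months. After a month without injections, DEN_SOR mice were gavaged with 30 mg/kg of sorafenib 2 times a week for 3 weeks. DEN and Untreated mice were gavaged with the vehicles over the same weeks, which for sorafenib was corn oil with 2% DMSO, and Untreated mice had been injected with 0.9% saline. DEN_SOR and Untreated livers therefore differed in both the carcinogen and the drug, and the direct test of the drug is DEN_SOR against DEN. The labels plan 6 animals per group and give a library per mouse, but they do not say whether a liver piece held tumour tissue.

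Diethylnitrosamine is activated by cytochrome P450 enzymes of hepatocytes around the central vein into an agent that alkylates DNA, and repeated doses lead to hepatocellular tumours in mice. Tumours and injured liver re-express fetal and bile duct genes, and lose part of the functions of the mature hepatocyte. Sorafenib is a kinase inhibitor that blocks, among others, the receptors for vascular endothelial growth factor and platelet-derived growth factor, and it is used against advanced liver cancer.

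Assigned reads per library ran from 14750278 to 20107029 in DEN_SOR, from 15821764 to 19925372 in DEN and from 15723658 to 19309618 in Untreated. All 9 livers carried the main product of hepatocytes, with Alb (albumin) at 17254 to 21397 FPKM in DEN_SOR and 21490 to 32448 FPKM in Untreated. FPKM, a read density scaled to gene length and library size, was computed here from the read counts behind the deposited signal. Xist, which coats the silenced X chromosome in female cells, had at most 7 reads in DEN_SOR and at most 8 in Untreated 1 and 2, against 22879, 29770 and 13370 reads in Untreated 3, 4 and 5. The Y-linked gene Ddx3y had 914 to 1469 reads in DEN_SOR, 1028 and 1373 reads in Untreated 1 and 2, and 84, 30 and 48 reads in Untreated 3, 4 and 5. DEN 4 had 132 reads of Ddx3y but 286 of the Y-linked Uty and 2 of Xist. Untreated 3, 4 and 5 are labelled male and carry female expression, so the comparison was repeated against Untreated 1 and 2 alone. Of 63 named genes that were called with 5 Untreated libraries and could be tested in that repeat, 11 kept their call, 52 lost it and 0 reversed it. The repeat also has 2 Untreated libraries in place of 5, which makes a change of a given size harder to call. A lost call is therefore not in itself a smaller change, and the part of sex in these losses was not tested. Genes of the mitochondrial chromosome took 7.43%, 7.35%, 13.6% and 34.8% of reads in DEN_SOR 1 to 4 and 6.80%, 6.91%, 13.5%, 6.36% and 8.69% in Untreated 1 to 5. The means were 15.8 ± 13% and 8.45 ± 2.96% (SD, n = 4 and 5), a difference of 7.35 points with a two-sided exact permutation p of 0.254, where the smallest possible p is 0.0159. Without DEN_SOR 4 the difference was 1.02 points.

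Across 12685 genes, 535 passed the test in DEN_SOR against Untreated (4.22%; limma, Benjamini-Hochberg adjusted p under 0.05). Of these, 227 were higher (1.79%) and 308 lower (2.43%) in DEN_SOR livers, and 429 were protein-coding. Against Untreated 1 and 2 alone, 48 of 12508 genes passed (0.384%), of which 22 were higher (0.176%) and 26 lower (0.208%). edgeR called 44 of these 12508 genes (0.352%), 33 higher (0.264%) and 11 lower (0.0879%), and DESeq2 352 (2.81%), 270 higher (2.16%) and 82 lower (0.656%). In all, 36 genes passed in the same direction with both sets of Untreated libraries. The split between directions moved with the scaling. It was 209 higher and 125 lower when FPKM was scaled by the library total, and 453 higher and 112 lower when mitochondrial genes were left out of that total. By edgeR on the reads 601 genes passed (4.74%), 328 higher (2.59%) and 273 lower (2.15%). By DESeq2 1175 passed (9.26%), 718 higher (5.66%) and 457 lower (3.6%). The median log2 fold change over all genes was -0.07 as tested and ran up to 0.10 under these scalings, so small changes stand within that shift. The count of 535 was 147 without DEN_SOR 1, 231 without DEN_SOR 3, and 293, 302, 237 and 333 without Untreated 1, 3, 4 and 5. The count of 48 was 14 without DEN_SOR 1 or DEN_SOR 3, 81 without DEN_SOR 4, and 5 and 2 without Untreated 1 and 2.

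A core of 98 genes, 56 higher and 42 lower in DEN_SOR livers, passed in every fit that left out 1 of the 9 libraries, under 3 other scalings and by edgeR. Of these 98 genes, 71 also passed in DEN against Untreated, 37 of them higher and 34 lower. That test called 3.45% of all genes, and 40.4% of the 535 genes called in DEN_SOR. It uses the same 5 Untreated libraries against which the core was selected, so part of the overlap follows from the choice. Of the 98 genes, 27 passed in the repeat against Untreated 1 and 2, 15 higher and 12 lower. The core was selected on these same data, so its size and these overlaps are descriptions. Among the 98 were H19, Mmp7, Epcam, Oas1g, Ifit1, Irf7, Rfx4, Nxpe2 and Camk1d, and of these Oas1g, Nxpe2 and Camk1d were among the 27. H19, Mmp7, Epcam, Ifit1 and Irf7 had log2 fold changes of 4.98, 4.41, 1.95, 1.72 and 1.43 against Untreated 1 and 2, with adjusted p-values of 0.143, 0.0520, 0.0866, 0.0877 and 0.0866.

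Oncofetal and tumour genes stood higher in DEN_SOR livers: 5 of 18 tested members of the tumour marker list rose and none fell. Of all genes tested, 1.79% rose and 2.43% fell. The called members were H19, Ly6d, Tspan8, Epcam and Cd24a. Tspan8, Epcam and Cd24a are counted again among the ductular genes below, so the 2 lists are not separate evidence. The median log2 fold change of the tumour marker list was 1.64, against -0.07 over all genes, and 1.55 with none called against Untreated 1 and 2. The count of 5 was 2 without DEN_SOR 1 or Untreated 1 and 3 without DEN_SOR 3 or Untreated 4. H19, an imprinted RNA that is expressed in fetal liver and silent in the adult, had 23.2, 22.6, 39.4 and 59.2 FPKM in DEN_SOR livers, 4.20 to 1179 with a median of 17 FPKM in DEN livers, and 0, 0.188, 0.678, 0.174 and 0.878 FPKM in Untreated livers. Every DEN_SOR liver lay above every Untreated liver, and none came near the 1179 FPKM of the highest DEN liver. The log2 fold change of H19 was 4.67 (SE 1.06, limma adjusted p = 0.0178), and it was 4.76 in DEN against the same Untreated libraries. Between DEN_SOR and DEN it differed by -0.08, with a 95% interval from -2.20 to 2.03. Ly6d, a surface protein of the Ly6 family, had 133, 17.3, 26.5 and 19.4 FPKM in DEN_SOR livers and at most 4.56 FPKM in Untreated livers (log2 3.94, SE 0.94, adjusted p = 0.0220). Its call was lost without DEN_SOR 1 (adjusted p = 0.0961) or Untreated 1 (0.0520). Afp, the fetal serum protein used as a tumour marker, had 2.53, 0.795, 1.10 and 3.63 FPKM in DEN_SOR livers and 0.105 to 0.302 FPKM in Untreated livers. Its levels did not overlap but were low, and it did not pass the test (log2 1.19, SE 0.94, adjusted p = 0.477). The oncofetal surface protein Gpc3 (log2 0.47, adjusted p = 0.555) and the proliferation marker Mki67 (0.56, adjusted p = 0.270) did not pass either. Lcn2, an acute-phase protein counted in this list, had 457, 22.5, 30.5 and 89.0 FPKM in DEN_SOR livers but was also at 275 FPKM in Untreated 2, with 0.970 to 10.9 FPKM in the other Untreated livers (adjusted p = 0.253).

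Genes of bile duct and ductular cells, the cells that line and regenerate bile ducts, were higher in DEN_SOR livers: 9 of 17 tested members rose, none fell, and the median log2 fold change was 1.03. Of all genes tested, 1.79% rose and 2.43% fell. Mmp7, a matrix-degrading protease that is not in this list and is known from injured bile duct epithelium, had 54.4, 50.2, 58.6 and 4.07 FPKM in DEN_SOR livers, 0.940 to 14.3 with a median of 3.09 FPKM in DEN livers, and 0.463, 0.397, 0.222, 0.143 and 0.120 FPKM in Untreated livers. DEN_SOR 4 stood far below the other DEN_SOR livers but still above all Untreated livers. The log2 fold change was 4.59 (SE 0.71, adjusted p = 0.000937), the largest rise among protein-coding genes that met the naming rule. Mmp7 did not pass in DEN against Untreated (log2 1.87, adjusted p = 0.105) or in DEN_SOR against DEN (2.72, unadjusted 95% interval 1.31 to 4.13, adjusted p = 0.305). Spp1 (osteopontin, a secreted matrix protein of ductular cells and macrophages) had 106, 107, 151 and 19 FPKM in DEN_SOR livers, 14.0 to 70.1 FPKM in DEN livers and 5.43 to 11.2 FPKM in Untreated livers. Its log2 fold change was 2.99 (SE 0.54, adjusted p = 0.00354), or 2.77 against Untreated 1 and 2 (adjusted p = 0.101), and DEN_SOR 4 was again the lowest of its group.

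Epcam, an adhesion protein of biliary and progenitor cells, had 4.81, 5.41, 5.93 and 1.36 FPKM in DEN_SOR livers and 0.225, 0.354, 0.216, 0.139 and 0.554 FPKM in Untreated livers (log2 1.95, SE 0.36, adjusted p = 0.00408). Muc1, a mucin of epithelial surfaces, had 2.20, 3.74, 3.76 and 0.583 FPKM against 0.0759 to 0.271 FPKM in Untreated livers (log2 1.52, SE 0.31, adjusted p = 0.00789). For both genes the groups did not overlap, and the calls held without any 1 library. The keratins Krt19 (log2 1.91), Krt18 (1.29) and Krt7 (0.85), the tight-junction protein Cldn7 (1.03), the surface protein Cd24a (1.36) and the tetraspanin Tspan8 (2.62) rose too, with adjusted p-values from 0.0220 to 0.0434. Each of these 6 lost its call in at least 1 fit without a library, and Tspan8 lost it in all 9 of them. The count of 9 was 10 without DEN_SOR 4, 4 without DEN_SOR 1, DEN_SOR 3 or Untreated 1, 5 without DEN_SOR 2 or Untreated 3, and 3 without Untreated 4. With Untreated 1 and 2 alone the list median was 1.00 and none of its members was called. The summed level of the 20 listed markers was 597 to 789 FPKM in DEN_SOR livers, 327 to 953 FPKM in DEN livers and 223 to 295 FPKM in Untreated livers. In whole liver a larger number of such cells and more RNA per cell cannot be told apart.

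**Figure D1:**
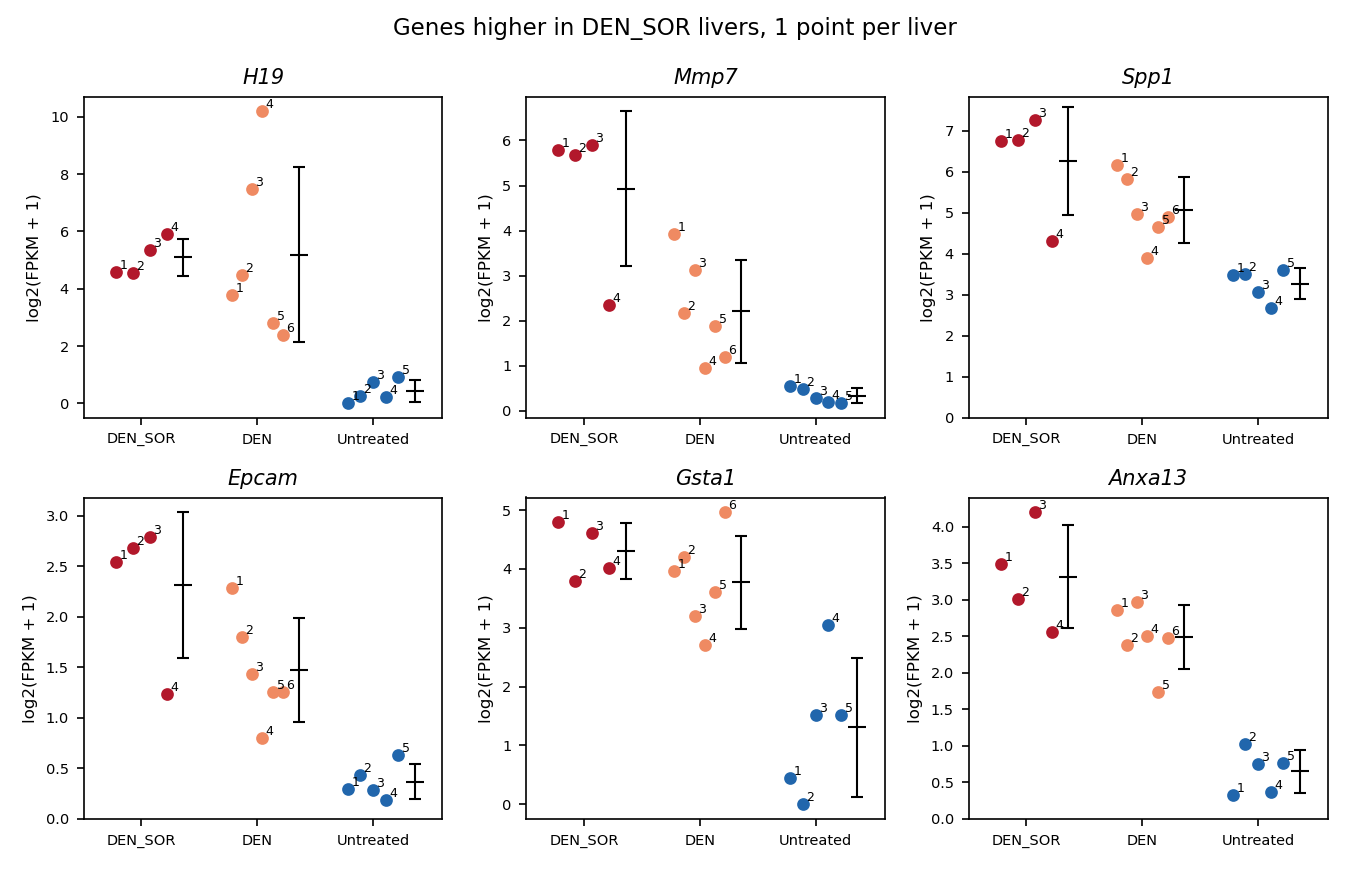
Level of 6 genes on the log2(FPKM + 1) scale, with 1 point per liver, its replicate number beside it, and the mean with SD as a bar, in DEN_SOR (n = 4), DEN (n = 6) and Untreated (n = 5) livers. All 4 DEN_SOR livers lie above all 5 Untreated livers for each gene, and DEN_SOR 4 is lowest of its group for Mmp7 (4.07 FPKM), Spp1 (19 FPKM), Epcam (1.36 FPKM) and Anxa13 (4.87 FPKM). For some of these genes the naming rule asked that all DEN_SOR livers lie above the Untreated mean.

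Other large rises fell on a glutathione transferase and on calcium-binding and cytoskeletal genes. Gsta1, an enzyme that couples glutathione to reactive compounds, had 26.8, 12.8, 23.4 and 15.2 FPKM in DEN_SOR livers, 5.53 to 30.2 with a median of 12.9 FPKM in DEN livers, and 0.370, 0, 1.86, 7.23 and 1.87 FPKM in Untreated livers. The log2 fold change was 3.00 (SE 0.58, adjusted p = 0.00524), and it was 4.08 (adjusted p = 0.00857) against Untreated 1 and 2. Its relatives Gsta5 (log2 1.41, adjusted p = 0.0225) and Gm3776 (2.70, adjusted p = 0.00851), both outside the list of glutathione transferases and chosen after their values were seen, passed as well. Gsta1 was the called member among the 22 tested genes of that list, and reads may be split between these near-identical copies. Anxa13, a membrane-binding annexin, had 10.2, 7.07, 17.5 and 4.87 FPKM in DEN_SOR livers and 0.258, 1.03, 0.692, 0.297 and 0.700 FPKM in Untreated livers. It passed with 5 (log2 2.67, SE 0.37, adjusted p = 0.000284) and with 2 Untreated libraries (2.64, adjusted p = 0.0232). The alpha-tubulin gene Tuba8 had 14.0, 5.82, 4.23 and 3.24 FPKM in DEN_SOR livers and 0.281 to 1.28 FPKM in Untreated livers (log2 2.06, SE 0.36, adjusted p = 0.00243). Cib3, a small calcium-binding protein, had 33.6, 16.2, 24.7 and 11.1 FPKM in DEN_SOR livers and 0.365 to 4.23 FPKM in Untreated livers (log2 2.77, SE 0.52, adjusted p = 0.00468). In DEN livers Gsta1, Anxa13, Tuba8 and Cib3 passed the test as well, with log2 fold changes of 2.47, 1.84, 1.80 and 2.82. Tuba8 passed against Untreated 1 and 2 (2.31, adjusted p = 0.0368), and Cib3 did not (2.21, adjusted p = 0.153). Cib3 is also counted in the list of male-biased liver genes described below. The part of sex in its change was not tested beyond the repeat with Untreated 1 and 2. Ubd, a ubiquitin-like protein induced by inflammatory cytokines (log2 2.68, adjusted p = 0.00874), and Slpi, a secreted protease inhibitor (2.81, adjusted p = 0.0415), completed the 8 largest rises. Ubd lost its call without DEN_SOR 1 (adjusted p = 0.0504), and Slpi kept its call in only 2 of the 9 fits without a library. Neither passed against Untreated 1 and 2 (adjusted p = 0.172 and 0.167), nor did Ly6d (0.206).

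Among 18 tested targets of p53, the DNA damage regulator, 3 rose and none fell, with a median of 0.30. Of all genes tested, 1.79% rose and 2.43% fell. Cdkn1a, the cell-cycle inhibitor p21, had 12.8, 5.92, 23.4 and 3.31 FPKM in DEN_SOR livers, 6.30 to 82.2 FPKM in DEN livers and 0.458, 1.81, 1.14, 1.56 and 1.32 FPKM in Untreated livers. All DEN_SOR livers were above all Untreated livers (log2 2.19, SE 0.54, adjusted p = 0.0251). Phlda3, an inhibitor of AKT signalling, rose by 1.03 (SE 0.28, adjusted p = 0.0361), against 1.61 in DEN livers. Sesn2, a stress-induced regulator of mTORC1, rose by 0.84 (SE 0.23, adjusted p = 0.0413). None of the 3 was called without DEN_SOR 1 or without Untreated 1, and 1 was called without DEN_SOR 3 or Untreated 3. Of 14 heat shock genes 3 rose, led by the chaperone Hsp90aa1 with 36.7, 49.4, 75.1 and 42.5 FPKM in DEN_SOR livers and 24.3, 17.1, 18.2, 31.2 and 26.5 FPKM in Untreated livers (log2 1.07, SE 0.23, adjusted p = 0.0129). The heat shock count was 0 without DEN_SOR 3, 1 without DEN_SOR 4 or Untreated 1, 2, 3 or 5, and 2 or 3 otherwise. Against Untreated 1 and 2 no p53 target and no heat shock gene passed (medians 0.33 and 0.21), with Cdkn1a at 2.31 (adjusted p = 0.186) and Hsp90aa1 at 1.23 (adjusted p = 0.0782).

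Interferon-stimulated genes, which cells switch on after interferon binds its receptor, rose in DEN_SOR livers: 11 of 32 tested members were higher and none lower, against 1.79% and 2.43% of all genes. All 32 fold changes were positive under each of the scalings tried, and the median was 0.81, against -0.07 over all genes. The count ran from 8 without DEN_SOR 1 or DEN_SOR 3 to 11 over the fits without a library. The promoters of Oas1g and Ifit1 are shown, 2 of the called members that hold an element often carried by genes of this kind. This is the interferon-stimulated response element, here written GAAANNGAAA. It was searched on both strands of the 250 bases before the start site (RefSeq, GRCm38.p6). Capitals mark matches, which overlap each other in Oas1g and lie on the opposite strand in Ifit1, and the windows are chr5:120887614-120887863 on the minus strand for Oas1g and chr19:34640639-34640888 on the plus strand for Ifit1.
Oas1g: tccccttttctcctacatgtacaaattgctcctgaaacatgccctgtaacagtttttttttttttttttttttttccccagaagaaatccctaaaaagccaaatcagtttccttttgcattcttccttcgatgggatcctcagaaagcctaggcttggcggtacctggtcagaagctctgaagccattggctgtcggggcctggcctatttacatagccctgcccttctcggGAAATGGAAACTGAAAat
Ifit1: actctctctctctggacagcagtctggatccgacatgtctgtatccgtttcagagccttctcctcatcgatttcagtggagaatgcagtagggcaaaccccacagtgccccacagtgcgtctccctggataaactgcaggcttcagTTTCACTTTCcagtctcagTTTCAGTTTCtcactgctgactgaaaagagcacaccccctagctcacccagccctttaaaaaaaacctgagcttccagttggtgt
The 2 matches of Oas1g began 18 and 12 bases before the start site, and those of Ifit1 104 and 85 bases before it. Of the 11 genes called, 7 matched an entry by symbol and 3 of these held the element, namely Oas1g, Oas1a and Ifit1. Among all 32 tested members, 22 matched and 12 held it (54.5%), against 936 of 27025 promoters of all genes (3.46%). A match to these letters is a description and does not show binding.

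Oas1g, an isoform of the antiviral enzyme that senses double-stranded RNA, had 9.13, 12.1, 10.8 and 7.4 FPKM in DEN_SOR livers, 5.42 to 8.99 with a median of 7.24 FPKM in DEN livers, and 1.78, 1.21, 1.65, 1.41 and 2.02 FPKM in Untreated livers. The DEN_SOR and Untreated groups were far apart. The log2 fold change was 2.04 (SE 0.22, adjusted p = 9.5e-06) with 5 Untreated libraries and 2.11 (SE 0.30, adjusted p = 0.00361) with Untreated 1 and 2. Its close relative Oas1a had 9.61, 19.6, 13.8 and 8.29 FPKM in DEN_SOR livers and 2.42 to 5.47 FPKM in Untreated livers (log2 1.54, SE 0.27, adjusted p = 0.00243), and reads may be shared between these copies. Ifit1, which blocks translation of viral RNA, had 21.7, 26.7, 23.7 and 17.7 FPKM in DEN_SOR livers, 7.18 to 23.9 FPKM in DEN livers and 6.81, 5.32, 3.78, 4.52 and 7.45 FPKM in Untreated livers. The fold change of Ifit1 was 1.85 (SE 0.33, adjusted p = 0.00313). Irf7, the transcription factor that amplifies interferon output, had 43.9, 47.5, 45.4 and 47.9 FPKM in DEN_SOR livers and 18.5, 14.7, 13.1, 16.2 and 16.2 FPKM in Untreated livers. The 4 DEN_SOR livers were nearly equal for Irf7, and its log2 fold change was 1.5 (SE 0.26, adjusted p = 0.00254). The protease Usp18, which removes ISG15 from proteins, rose by 1.52, Ifi44 by 1.39 and the OAS-like gene Oasl2 by 1.02. These 7 genes kept their calls without any 1 library and were also called in DEN against Untreated. Oasl1 (1.36) and Ifi27l2b (2.08) were called in both comparisons too, while Mx2 passed in DEN_SOR (1.21) but not in DEN (0.88). With Untreated 1 and 2 alone the median was 0.83, 31 of 32 fold changes were positive, and Oas1g was the member that passed. Between DEN_SOR and DEN the list median was 0.20 and no member passed. Class II antigen presentation genes had a median of 1.03 over 6 members, of which H2-Aa was called (log2 1.29, adjusted p = 0.0405), with 2 of 9 fits without a library keeping that call.

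**Figure D2:**
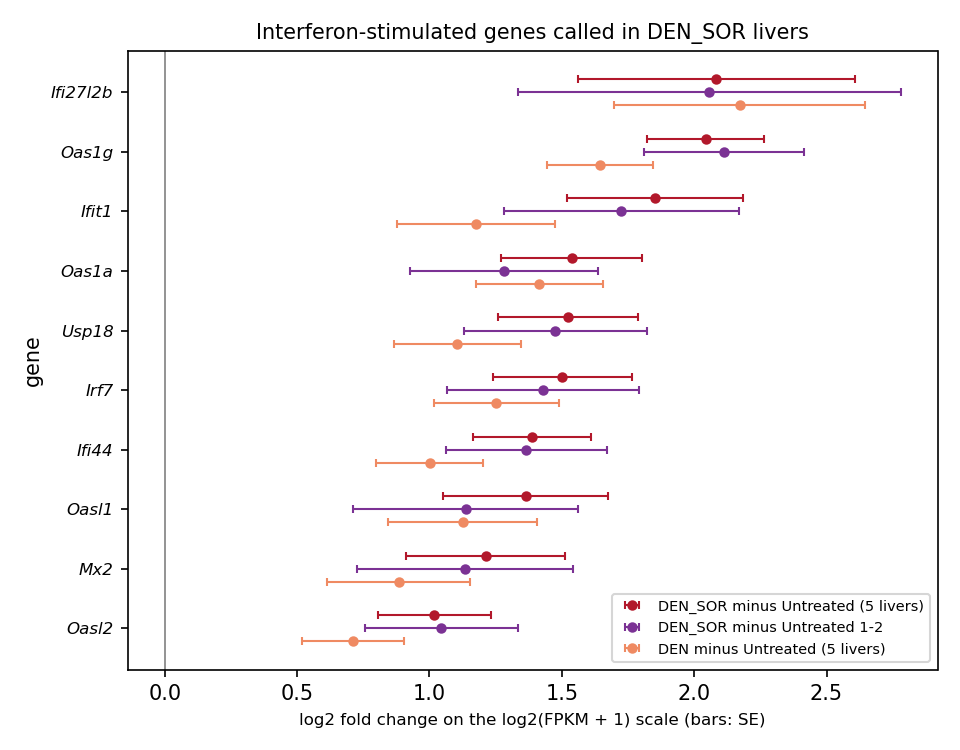
Log2 fold change with SE of 10 interferon-stimulated genes called in DEN_SOR against Untreated, each shown against 5 Untreated livers, against Untreated 1 and 2 alone, and for DEN against 5 Untreated livers. All points lie right of 0, from 0.71 for Oasl2 in DEN to 2.17 for Ifi27l2b in DEN.

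Several genes were lower in all DEN_SOR livers than in all Untreated livers. The naming rule asked that all DEN_SOR livers lie below the mean of the Untreated livers compared. Part of this separation therefore follows from the choice of genes, and the share of all genes without overlap was not counted. Rfx4, a transcription factor of the regulatory factor X family, had 0.0484, 0.204, 0.117 and 0.375 FPKM in DEN_SOR livers, 0.0112 to 0.641 FPKM in DEN livers and 2.65, 2.08, 5.35, 3.40 and 5.18 FPKM in Untreated livers. Its log2 fold change was -1.95 (SE 0.19, adjusted p = 2.04e-06), and -1.77 in DEN livers. With Untreated 1 and 2 alone it missed the filter on low levels and was not tested. Nxpe2 had 0.792, 0.744, 0.842 and 0.864 FPKM in DEN_SOR livers, 0.232 to 1.11 FPKM in DEN livers and 3.89, 6.85, 4.56, 3.63 and 4.03 FPKM in Untreated livers. Nxpe2 passed with 5 (log2 -1.60, SE 0.17, adjusted p = 8.31e-06) and with 2 Untreated libraries (-1.78, adjusted p = 0.00169). Camk1d, a calcium/calmodulin-dependent protein kinase, had 1.73, 1.52, 1.89 and 3.15 FPKM in DEN_SOR livers and 7.06, 6.75, 7.17, 6.75 and 6.37 FPKM in Untreated livers. Camk1d also passed with both sets (log2 -1.37 and -1.39, adjusted p = 3.6e-05 and 0.00857). Fzd8, a receptor for Wnt ligands, had 1.90, 1.75, 0.780 and 0.526 FPKM in DEN_SOR livers and 2.84 to 5.08 FPKM in Untreated livers (log2 -1.22, SE 0.19, adjusted p = 0.000999; -1.46 against Untreated 1 and 2, adjusted p = 0.00857). Between DEN_SOR and DEN, Rfx4 differed by -0.18 (95% interval -0.55 to 0.20), Nxpe2 by 0.14 (-0.19 to 0.48) and Camk1d by -0.08 (-0.41 to 0.24).

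Lists of mature hepatocyte functions held few calls: 1 of 22 pericentral genes, 1 of 15 UDP-glucuronosyltransferases and 1 of 23 bile acid genes fell, against 2.43% of all genes, and these counts show nothing particular to the lists. Tbx3, a transcription factor of the zone around the central vein and a target of Wnt signalling, had 1.25, 1.22, 0.590 and 1.43 FPKM in DEN_SOR livers, 0.239 to 4.31 FPKM in DEN livers and 4.66, 6.12, 6.62, 5.25 and 7.69 FPKM in Untreated livers (log2 -1.74, SE 0.32, adjusted p = 0.00362). It was the called member among 22 pericentral genes, 21 of which had negative fold changes (median -0.47). With Untreated 1 and 2 alone Tbx3 had -1.60 (adjusted p = 0.108) and no pericentral gene was called. Glul, the glutamine synthetase of the innermost pericentral cells, had 57.1, 70.3, 49.8 and 87.9 FPKM in DEN_SOR livers and 110 to 191 FPKM in Untreated livers. The ranges of Glul did not overlap, but it did not pass (log2 -1.21, SE 0.43, adjusted p = 0.0989), whereas it passed in DEN (-1.80, adjusted p = 0.0107). DEN_SOR against DEN gave 0.58 for Glul (unadjusted 95% interval -0.26 to 1.43, adjusted p = 0.809). Cyp1a2, another pericentral enzyme, did not pass (-0.60, adjusted p = 0.620). Pdk1, a kinase that shuts pyruvate dehydrogenase, had 5.41, 5.24, 3.04 and 4.84 FPKM in DEN_SOR livers and 10.6 to 13.1 FPKM in Untreated livers (log2 -1.24, SE 0.20, adjusted p = 0.00126). It kept its call without any 1 library, but did not pass against Untreated 1 and 2 (-1.10, adjusted p = 0.0812), and DEN livers differed from Untreated livers by -1.25.

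Of 21 fatty acid synthesis genes 3 fell, against 2.43% of all genes, with a median of -0.56. These 3 were Pklr, the liver pyruvate kinase (log2 -1.28, adjusted p = 0.0269), Srebf1, the regulator of lipogenic genes (-1.16, adjusted p = 0.0430), and Dgat2, which makes triglyceride (-0.87, adjusted p = 0.0227). None was called without DEN_SOR 1 or DEN_SOR 3, 1 without Untreated 1 or 4, and 2 without Untreated 2, 3 or 5. In the growth hormone axis 3 of 16 genes fell (median -0.32): the signal transducers Stat5a and Stat5b, and Igfals, the serum partner of IGF1. Stat5a had 1.62, 0.983, 1.06 and 1.17 FPKM in DEN_SOR livers, 1.46 to 2.14 FPKM in DEN livers and 2.63, 2.13, 2.45, 3.11 and 3.73 FPKM in Untreated livers (log2 -0.78, SE 0.16, adjusted p = 0.0103), and kept its call without any 1 library. Stat5b (-0.74, adjusted p = 0.0326) and Igfals (-1.39, adjusted p = 0.0485) lost theirs in 5 and 8 of the 9 fits. The count was 1 without DEN_SOR 1 or Untreated 1, 3 or 4, and 2 or 3 otherwise. Neither the fatty acid synthesis list nor the growth hormone list had a called member against Untreated 1 and 2 (medians -0.49 and -0.45), where Stat5a had -0.62 (adjusted p = 0.220). All 15 tested UDP-glucuronosyltransferases, which conjugate bilirubin, hormones and drugs, had negative fold changes (median -0.69), and Ugt3a1 was called (-1.78, SE 0.37, adjusted p = 0.0102; 0.0504 without DEN_SOR 1, 0.0641 by edgeR). With mitochondrial genes left out of the library total 14 of these 15 were negative, and without DEN_SOR 4 it was 13. No member was called against Untreated 1 and 2 (median -0.89).

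Among the 8 largest falls were also Slc22a7, an organic anion transporter, with 5.07, 6.62, 4.46 and 6.90 FPKM in DEN_SOR livers and 38.7, 45.5, 6.07, 28.0 and 29.9 FPKM in Untreated livers. Untreated 3 lay within the DEN_SOR range (log2 -1.96, SE 0.51, adjusted p = 0.0317), and without it the change was -2.42 (adjusted p = 0.00597). Slc22a7 also passed against Untreated 1 and 2 (-2.68, adjusted p = 0.0391), but lost its call without DEN_SOR 1 or 3 or Untreated 1, 2, 4 or 5, with adjusted p-values from 0.0626 to 0.0922. Dusp1, a phosphatase that switches off MAP kinases, had 3.40, 9.12, 11.8 and 3.55 FPKM in DEN_SOR livers and 12.7 to 42.2 FPKM in Untreated livers (-1.91, SE 0.41, adjusted p = 0.0127; 0.0619 without DEN_SOR 1 and 0.0520 against Untreated 1 and 2). Ces1c, a carboxylesterase secreted into blood, had 123, 279, 142 and 102 FPKM in DEN_SOR livers and 412 to 679 FPKM in Untreated livers (-1.82, SE 0.44, adjusted p = 0.0225), kept its call in 5 of the 9 fits and did not pass against Untreated 1 and 2 (adjusted p = 0.186). Klb, the co-receptor for FGF15 in bile acid control, fell by 0.88 (adjusted p = 0.0220) and was the called member among 23 bile acid genes, none of which passed against Untreated 1 and 2.

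**Figure D3:**
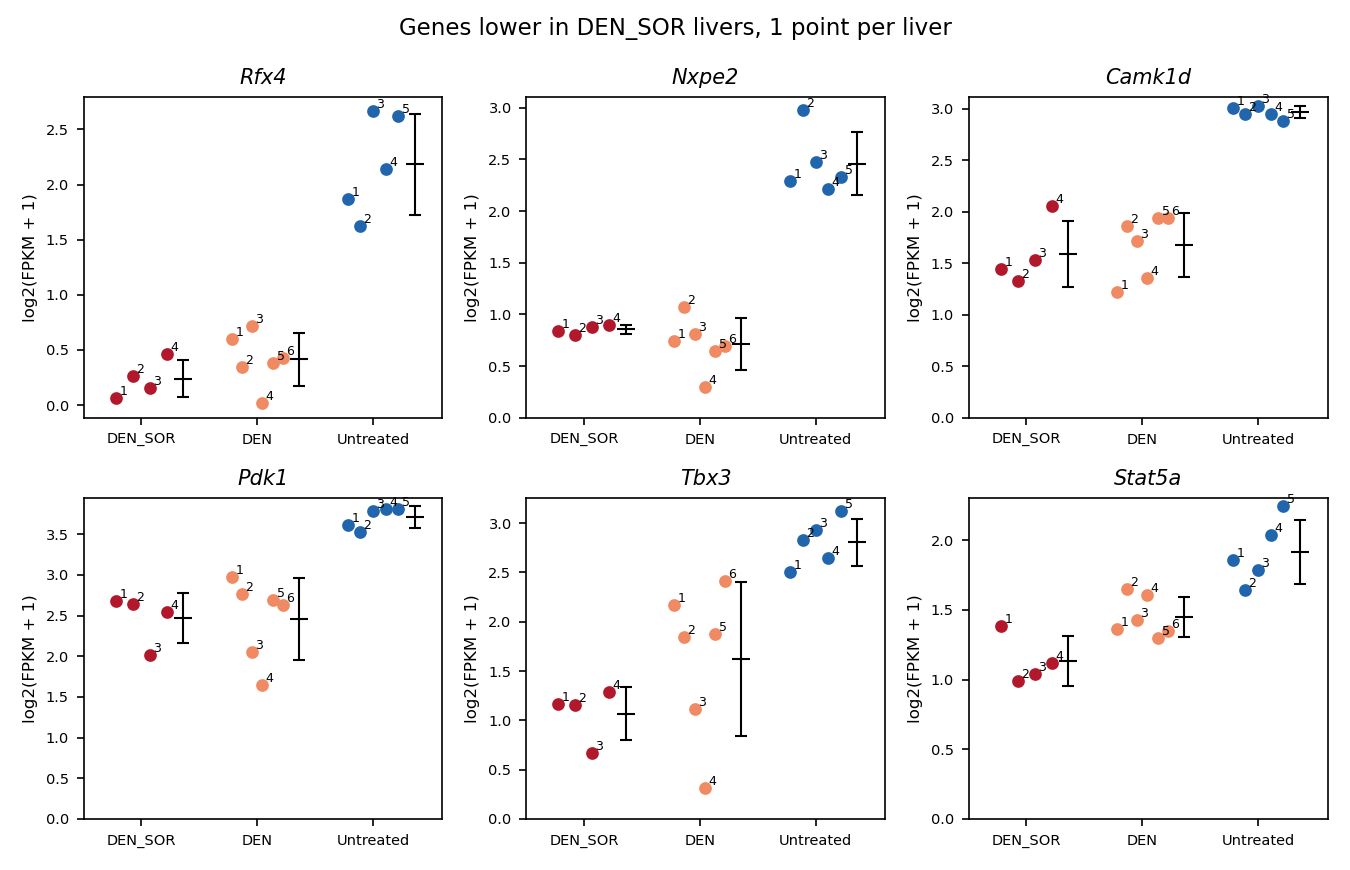
Level of 6 lower genes on the log2(FPKM + 1) scale, with 1 point per liver, its replicate number beside it, and the mean with SD as a bar, in DEN_SOR (n = 4), DEN (n = 6) and Untreated (n = 5) livers. For each gene the 4 DEN_SOR livers lie below the 5 Untreated livers, as for Nxpe2, at no more than 0.864 FPKM in DEN_SOR and no less than 3.63 FPKM in Untreated. For some of these genes the naming rule asked that all DEN_SOR livers lie below the Untreated mean.

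Genes of liver sinusoidal endothelium, which carry the vascular growth factor receptors that sorafenib blocks, were lower in DEN_SOR livers: 4 of 20 tested members fell, none rose, and 19 fold changes were negative (median -0.62). Of all genes tested, 2.43% fell and 1.79% rose. Kdr, the receptor VEGFR2, had 0.552, 2.27, 2.06 and 1.27 FPKM in DEN_SOR livers, 2.38 to 4.48 with a median of 3.39 FPKM in DEN livers, and 3.00, 1.85, 4.59, 4.08 and 5.12 FPKM in Untreated livers. DEN_SOR livers lay below all DEN livers but overlapped Untreated 2 (log2 -0.91, SE 0.23, adjusted p = 0.0279). In DEN against Untreated the value of Kdr was -0.08 (adjusted p = 0.878), and DEN_SOR against DEN gave -0.83 (unadjusted 95% interval -1.28 to -0.38, adjusted p = 0.330). Tie1, an endothelial receptor kinase, had 0.595, 1.67, 1.89 and 1.16 FPKM in DEN_SOR livers, 2.12 to 3.69 FPKM in DEN livers and 2.74 to 4.34 FPKM in Untreated livers (log2 -0.90, SE 0.21, adjusted p = 0.0186). Stab2, a scavenger receptor of sinusoidal cells, fell by 1.00 (adjusted p = 0.0225), and Fcgr2b, their inhibitory Fc receptor, by 1.06 (adjusted p = 0.0245). Tie1 kept its call in 8, Stab2 in 7, and Kdr and Fcgr2b in 4 of the 9 fits without a library.

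The endothelial count rested on single libraries: it was 0 without DEN_SOR 1, 1 without Untreated 3, 2 without DEN_SOR 4, Untreated 4 or Untreated 5, 6 without Untreated 2, and 7 without DEN_SOR 2. It was 2 when FPKM was scaled by the library total and 1 with mitochondrial genes left out of it. Against Untreated 1 and 2 the median was -0.31 and no member passed. The summed level of the 24 listed endothelial genes was 30.3, 88.4, 94.3 and 58.8 FPKM in DEN_SOR livers, 94.9 to 124 FPKM in DEN livers and 96.3, 76.2, 136, 128 and 159 FPKM in Untreated livers. Fewer endothelial cells and less RNA per cell cannot be told apart here. Of 12 tested kinases and growth factors around the targets of sorafenib, Pdgfa, a ligand of the platelet-derived growth factor receptors, rose, with 6.95, 4.26, 5.44 and 4.88 FPKM in DEN_SOR livers and 1.09 to 2.02 FPKM in Untreated livers (log2 1.29, SE 0.22, adjusted p = 0.00231). Pdgfa kept its call without any 1 library and was called in DEN as well (0.94, adjusted p = 0.00977), but did not pass against Untreated 1 and 2 (1.33, adjusted p = 0.0552). Vegfa, the ligand of Kdr, fell by 0.74 (SE 0.17, adjusted p = 0.0168; call lost without DEN_SOR 1, with FPKM scaled by the library total and against Untreated 1 and 2). Vegfa was also called as lower in DEN against Untreated, without the drug. The kinases Braf (-0.18, adjusted p = 0.396) and Pdgfrb (0.25, adjusted p = 0.498) did not pass.

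With Untreated 3, 4 and 5 left out, the largest changes in each direction among called protein-coding genes that met the naming rule were in sex-biased liver genes. The levels of such genes in mice follow the male and female patterns of growth hormone. Cyp2a4, a female-biased steroid hydroxylase, had 250, 59.4, 114 and 127 FPKM in DEN_SOR livers, 0.203 and 0.325 FPKM in Untreated 1 and 2, and 300, 592 and 407 FPKM in Untreated 3, 4 and 5. It was thus far higher in DEN_SOR livers than in the Untreated libraries with male expression, and lower than in the others. Its log2 fold change against Untreated 1 and 2 was 6.60 (SE 1.21, adjusted p = 0.0190), and against all 5 it was 1.57 (adjusted p = 0.577). Cyp2b9, a female-biased P450, had 62.7, 7.19, 34.6 and 55.1 FPKM in DEN_SOR livers, 0.151 and 0 FPKM in Untreated 1 and 2, and 318, 251 and 183 FPKM in Untreated 3, 4 and 5. Cyp2b9 rose by 4.90 against Untreated 1 and 2 (SE 0.99, adjusted p = 0.0357), with 0.19 against all 5 (adjusted p = 0.951). Cyp2c69 had 6.37, 0.658, 5.22 and 3.68 FPKM in DEN_SOR livers, was listed at 0 in Untreated 1 and 2, and had 89.0, 83.1 and 197 FPKM in Untreated 3, 4 and 5. Its fitted change was 2.12 against Untreated 1 and 2 (adjusted p = 0.0357) and -1.98 against all 5 (adjusted p = 0.294), so its sign depends on which Untreated libraries enter. Close P450 copies may share reads.

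The male-biased genes called against Untreated 1 and 2 were lower in DEN_SOR livers. Mup9, a major urinary protein that carries pheromones, had 1.16, 144, 4.14 and 5.8 FPKM in DEN_SOR livers, 681 and 2170 FPKM in Untreated 1 and 2, and 3.52, 92.1 and 203 FPKM in Untreated 3, 4 and 5 (log2 -6.89 against Untreated 1 and 2, adjusted p = 0.0154; -4.02 against all 5, adjusted p = 0.0733). DEN_SOR 2 stood above the other DEN_SOR livers and within the range of Untreated 3 to 5. Sult5a1, a sulfotransferase, had 0.0828, 0.811, 0.181 and 2.51 FPKM in DEN_SOR livers, 18.2 and 11.1 FPKM in Untreated 1 and 2 and 0.309, 3.38 and 12.8 FPKM in Untreated 3, 4 and 5 (-3.18 against Untreated 1 and 2, adjusted p = 0.0200). Mup18 passed with both sets of Untreated libraries (-3.72, adjusted p = 0.0226, and -2.40, adjusted p = 0.0368), but without DEN_SOR 1 or 3 or Untreated 4 or 5 its adjusted p in the larger set ran from 0.0514 to 0.0797. Mup18 is counted in the male-biased list, but it fell less against Untreated 1 and 2 than against all 5. It thus did not show a male pattern among the Untreated livers. Over 32 female-biased genes the median log2 fold change was 1.32 against Untreated 1 and 2, with 3 called, and -1.10 against all 5. Over 31 male-biased genes it was -1.89 against Untreated 1 and 2, with 2 called, and -0.53 against all 5. DEN livers without the drug ranged widely too. The summed female-biased list was 261 to 2010 FPKM in DEN_SOR, 123 to 1450 in DEN, and 88.8 and 196 in Untreated 1 and 2. The summed male-biased list was 1318 to 22576 FPKM in DEN_SOR, 1913 to 25471 in DEN, and 38245 and 34969 in Untreated 1 and 2. Urinary protein genes are near-identical copies, so reads among them are uncertain. The fatty acid transporter Cd36 rose against Untreated 1 and 2, with 19.3, 13.9, 15.8 and 9.40 FPKM in DEN_SOR livers and 0.925 and 4.27 FPKM in those 2 livers (log2 2.25, adjusted p = 0.0202), while Untreated 3, 4 and 5 had 9.21 to 10.6 FPKM. The cell-cycle cyclin Ccnd1 passed with both sets (1.41, adjusted p = 0.0356, and 2.11, adjusted p = 0.0368), but kept its call with 5 Untreated libraries in only 2 of the 9 fits.

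**Figure D4:**
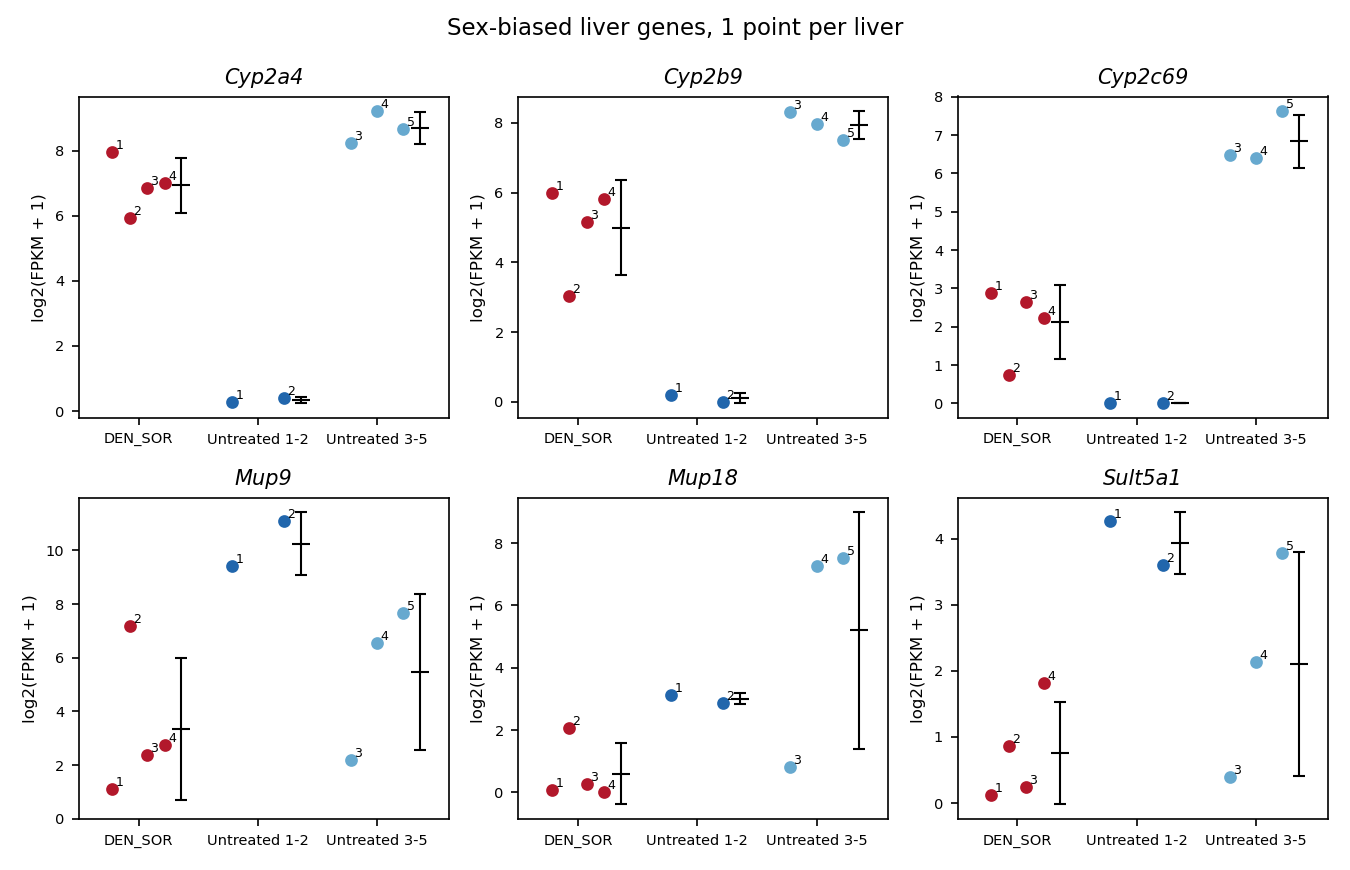
Level of 6 genes taken as sex-biased on the log2(FPKM + 1) scale, with 1 point per liver, its replicate number beside it, and the mean with SD as a bar, in DEN_SOR livers (n = 4), Untreated 1 and 2, and Untreated 3, 4 and 5. Mup18 did not show a male pattern among the Untreated livers. For Cyp2a4 and Cyp2b9 the DEN_SOR livers lie between the near-zero Untreated 1 and 2 and the Untreated libraries with Xist reads, and for Mup9 all DEN_SOR livers lie below Untreated 1 and 2 (681 and 2170 FPKM).

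**Figure D5:**
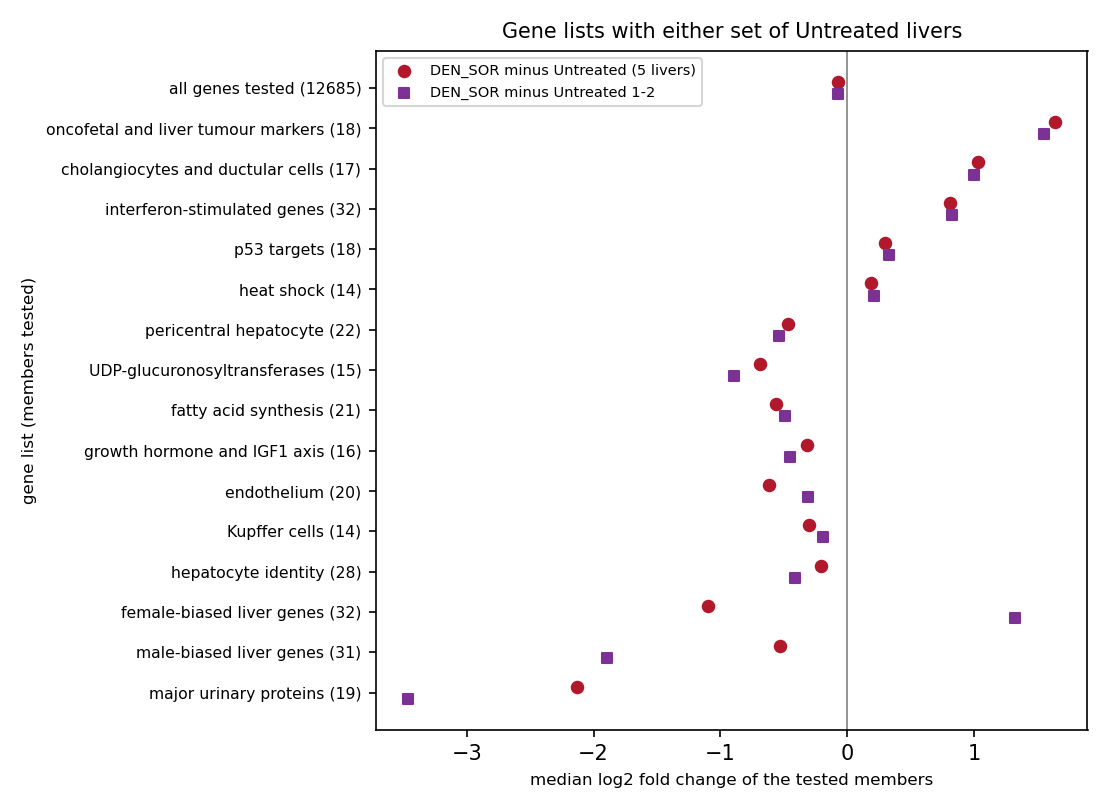
Median log2 fold change of the tested members of 15 gene lists and of all genes, in DEN_SOR against 5 Untreated livers (circles) and against Untreated 1 and 2 alone (squares), with the number tested in parentheses. Tumour, ductular and interferon lists lie right of 0 with both sets, at 1.64, 1.03 and 0.81 with 5 livers, whereas the female-biased list changes side, at -1.10 and 1.32.

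In DEN against Untreated 437 of 12685 genes passed (3.45%), 140 higher (1.1%) and 297 lower (2.34%). Of these, 216 passed in the same direction in DEN_SOR against Untreated, 76 higher and 140 lower, and none passed in the opposite direction. The 216 genes were 49.4% of the DEN calls and 40.4% of the DEN_SOR calls. Both comparisons use the same 5 Untreated libraries, so a shared deviation of those libraries, of which 3 carry female expression, enters both counts. The Y-linked gene Eif2s3y was itself among the 216 (log2 1.94 in DEN_SOR) and was not called against Untreated 1 and 2. It had 1023 and 1082 reads in Untreated 1 and 2, and 86, 17 and 40 in Untreated 3, 4 and 5. Of 32 female-biased genes 7 were among the DEN calls and lower, and the part of sex in these counts was not tested beyond the repeat with Untreated 1 and 2. With Untreated 1 and 2 alone, 27 genes were called in both, which was 50% of 54 DEN calls (0.432% of genes, 0.128% higher and 0.304% lower) and 56.2% of 48 DEN_SOR calls. The count of 216 was 90 without DEN_SOR 1, 116 without DEN_SOR 3, and 115, 120, 98 and 131 without Untreated 1, 3, 4 and 5. Among the 8 largest rises of DEN, Cib3, Tspan8, Cdkn1a, Gsta1, S100a11, Cd63, Ifi27l2b and Lpl, all also passed in DEN_SOR. Of these, Cib3 is counted in the male-biased list and Lpl in the female-biased list. The calcium-binding protein S100a11 had log2 fold changes of 2.20 in DEN_SOR and 2.35 in DEN, the tetraspanin Cd63 2.47 and 2.27, and the lipoprotein lipase Lpl 1.63 and 1.98. S100a11 and Lpl kept their DEN_SOR calls in 4 and Cd63 in 7 of the 9 fits without a library, and S100a11 and Cd63 did not pass against Untreated 1 and 2 (adjusted p = 0.174 each). Lpl had 23.4, 9.81, 21.3 and 10.2 FPKM in DEN_SOR livers and 9.85 and 14.8 FPKM in Untreated 1 and 2 but 1.02 to 2.60 FPKM in Untreated 3 to 5, and did not pass against Untreated 1 and 2 (0.29, adjusted p = 0.760).

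Of the 8 largest falls of DEN, Mup18 passed in DEN_SOR and 7 did not. Nr1d1, a repressor of the daily clock, had 23.7, 31.4, 5.11 and 44.6 FPKM in DEN_SOR livers, 3.27 to 15.9 with a median of 6.52 FPKM in DEN livers, and 54.4, 52.2, 59.5, 24.9 and 31.9 FPKM in Untreated livers. Of the DEN_SOR livers 3 lay above all DEN livers, and DEN_SOR 3 lay among them. DEN_SOR differed from Untreated by -0.99 (SE 0.47, adjusted p = 0.214), against -2.49 in DEN (adjusted p = 0.00192), and from DEN by 1.5 (unadjusted 95% interval 0.57 to 2.43, adjusted p = 0.476). Cyp2c69, Sult3a1 and Cyp2c40, which follow the Xist libraries among the Untreated livers, had changes of -1.98, -2.41 and -1.94 in DEN_SOR and -3.81, -3.76 and -3.42 in DEN. Against Untreated 1 and 2 the DEN_SOR values of these 3 genes were 2.12, 0.62 and 1.33. Mup9 had -4.02 in DEN_SOR and -4.77 in DEN. Cyp46a1, a cholesterol hydroxylase, had -2.53 in DEN_SOR (adjusted p = 0.0597) and -2.79 in DEN, and Cyp2c37 had -1.49 (adjusted p = 0.248) and -2.54. Cyp3a11, a P450 with wide drug substrates, had 656, 1228, 1970 and 162 FPKM in DEN_SOR livers and 65.7 to 451 FPKM in Untreated livers (log2 1.74, adjusted p = 0.222). Cyp2b10, a P450 induced by many drugs, had 12.2, 39.0, 105 and 2.86 FPKM in DEN_SOR livers and 4.15 to 25.0 FPKM in Untreated livers (0.36, adjusted p = 0.906).

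The test of DEN_SOR against DEN called 0 of 12685 genes (0%) by limma, with 901 genes at an unadjusted p under 0.05, 0 by edgeR (958 at an unadjusted p under 0.05) and 30 by DESeq2 (0.236%), 17 higher (0.134%) and 13 lower (0.102%). Leaving out DEN 1 gave 9 calls and leaving out DEN_SOR 3 gave 2. The unadjusted 95% interval of this difference reached a median of 0.389 on the log2 scale to each side over all genes tested. A gene called in DEN and not in DEN_SOR is therefore not shown to differ between these groups. On GRCm39, the build of the submitted data, several genes described above are H19 (ENSMUSG00000000031, chr7:142129262-142131886), Mmp7 (ENSMUSG00000018623, chr9:7692091-7699586), Spp1 (ENSMUSG00000029304, chr5:104582984-104588916), Oas1g (ENSMUSG00000066861, chr5:121014205-121025676), Rfx4 (ENSMUSG00000020037, chr10:84591926-84742402), Nxpe2 (ENSMUSG00000032028, chr9:48229306-48264754), Camk1d (ENSMUSG00000039145, chr2:5298268-5719326), Cyp2a4 (ENSMUSG00000074254, chr7:26006594-26014513) and Nr1d1 (ENSMUSG00000020889, chr11:98658758-98666159).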

How the data were processed

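Liver RNA was sequenced from 25 mice, per the labels' protocols after phenol-based lysis and column purification, with a SMARTer library kit. Reads were aligned with HISAT2 2.0.5 and counted with featureCounts 1.5.0-p3 on GRCm39 (mm39), per the submitters' processing notes; strand use is not stated. The deposited tables, named for FPKM, hold a signal: the authors' whole reads divided by a size factor per library, since 100% of values were whole multiples of the value of 1 read within 0.01. From the recovered reads, FPKM was computed with the length in the tables and TMM effective library sizes over the 24774 genes in all 5 tables. The unit assumed beforehand was FPKM, so limma stayed the main test. Genes reaching 1 FPKM in 4 libraries entered limma 3.58.1 (R 4.3.3) on log2(FPKM + 1), with eBayes and a trend, 1 coefficient per group, 25 libraries (20 residual degrees of freedom) or 22 without Untreated 3, 4 and 5 (17), two-sided, Benjamini-Hochberg adjusted over all genes tested. Fold changes are on that log2 scale, which understates low genes. A gene is called at an adjusted p under 0.05. edgeR 4.0.16 and DESeq2 1.42.0 on the reads, other scalings, filters and pseudocounts, and leaving out each library were alternatives. The steps were tested on simulated data.

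The libraries, gene lists and naming rule were chosen with earlier results of these data known. The rule names the 8 largest and 8 smallest changes among called protein-coding genes per comparison, the 3 largest called members of each list and a fixed set of tumour, clock, drug and kinase genes. For the 8 largest and 8 smallest, a mean of 1 FPKM or more in a group was required. Every DEN_SOR library, or every DEN library in DEN against Untreated, also had to lie on the same side of the Untreated mean. Other genes described, among them ductular, interferon and endothelial members, Lcn2 and Tie1, were chosen after their values were seen. Replicates are separate mice per the titles. Replicate numbers did not pair the libraries. Some results are not reported here.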

Additional observations from a re-analysis of the deposited data

Results flagged for a closer look

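Within groups, a library stood apart from the rest of its group in 9 of 163 sets of values examined, where chance gives about 1 in 20. A library was taken as apart when its gap to the nearest other library exceeded the 95% limit of Dixon's ratio. DEN_SOR 4 was low for Mmp7, with 4.07 FPKM against 50.2 to 58.6 FPKM in the other DEN_SOR livers, and for Epcam, with 1.36 FPKM against 4.81 to 5.93 FPKM. This library also had 34.8% mitochondrial reads, and the part of that share in these levels was not tested. Without it the ductular list had 10 called members instead of 9.

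DEN_SOR 1 was high for Slpi, with 66.6 FPKM against 15.5 to 18.6 FPKM, and low for Sult1c2, with 1.24 FPKM against 3.91 to 4.37 FPKM. DEN_SOR 2 was high for Mup18, with 3.22 FPKM against 0 to 0.215 FPKM. DEN_SOR 3 was low for Srebf1, with 8.65 FPKM against 19.5 to 22.7 FPKM. Among Untreated livers, Untreated 3 was low for Slc22a7, with 6.07 FPKM against 28.0 to 45.5 FPKM. Untreated 2 was low for Cyp2b10, with 4.15 FPKM against 17.4 to 25.0 FPKM, and high for Ubd, with 1.52 FPKM against 0.275 to 0.491 FPKM.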

How the results depend on the processing

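Of 64 called named genes, 18 kept their call in every fit that left out 1 library, 46 lost it in at least 1, and none of these 64 was called in the opposite direction in any fit. The cause of the moves below was not tested. DEN_SOR against Untreated gave 535 calls, 334 with the library total, 1175 by DESeq2, 937 with libraries numbered 3 and 4 as a covariate, 51 in those libraries alone, 337 in the others, and 147 to 764 without 1 library. Against Untreated 1 and 2 it gave 48, 90 with no filter, 31 with the library total, 352 by DESeq2, 10 with only the groups compared, 125 in libraries not numbered 3 or 4, and 2 to 81 without 1 library; numbers 3 and 4 alone leave no Untreated library. Calls shared with DEN were 216, then 123 with the library total, 545 by DESeq2, 70 with only the groups compared, 448 with the covariate, 40 in libraries numbered 3 and 4, 80 in the others, and 90 to 223 without 1 library. DEN_SOR against DEN gave 0, 1 with no filter, 30 by DESeq2, 5 in libraries not numbered 3 or 4, and 0 to 9 without 1 library. The mitochondrial difference ran from 1.017 to 10.17 points without 1 library.

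Changes of sign, mostly without a call on either side, were limited to 7 genes. Cyp2a4 was -0.92 by edgeR, -0.84 by DESeq2 and -1.80 in libraries numbered 3 and 4. Cyp2b9 was -1.91 by edgeR, -1.83 by DESeq2, -2.67 in libraries numbered 3 and 4, -0.14 and -0.08 without DEN_SOR 1 and 4, and -0.96 and -1.01 without Untreated 1 and 2, with -1.01 to 1.07 over all fits without a library. Cyp2b10 was -0.34 in libraries numbered 3 and 4, -0.41 without DEN_SOR 3 and -0.07 without Untreated 2, with -0.41 to 1.19 over those fits. Against Untreated 1 and 2, Cyp2c69 was 2.12 (called), Sult3a1 0.62, Cyp2c40 1.33 and Ddx3y -0.28.

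With the replicate number as a block the counts were 587, 57, 314 and 0. Same-numbered DEN_SOR and Untreated libraries correlated at -0.29, 0.27, 0.08 and -0.15, so the numbers do not pair them.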

Other observations

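Other hepatocyte lists showed few calls in DEN_SOR against Untreated livers. None of 20 periportal, 18 urea cycle or 30 fatty acid oxidation genes passed (medians -0.13, -0.05 and -0.23), nor did any of 20 clock genes (0.05) or 23 genes of the unfolded protein response (0.02). Of 29 coagulation and complement genes 2 fell, against 2.43% of all genes. These were the complement subunit C8g (log2 -0.72, adjusted p = 0.0326) and the thrombin inhibitor Serpinc1 (-0.62, adjusted p = 0.0341). Prox1, a transcription factor of hepatocyte identity, had 6.01, 10.6, 5.79 and 4.14 FPKM in DEN_SOR livers and 9.61 to 13.5 FPKM in Untreated livers (-0.83, adjusted p = 0.0326). The sterol reductase Tm7sf2 fell by 0.95 (adjusted p = 0.0316), and Spry4, a feedback inhibitor of RAS signalling, by 0.75 (adjusted p = 0.0123). Spry4 kept its call in 7 of the 9 fits without a library, and C8g, Tm7sf2, Serpinc1 and Prox1 in 3, 3, 2 and 2 of them.

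Among other cell types, the macrophage mannose receptor Mrc1 was the called member of 14 Kupffer cell genes (-0.61, adjusted p = 0.0485) and Lrat, which stores vitamin A in stellate cells, of 24 matrix and stellate genes (-0.94, adjusted p = 0.0444). Mrc1 and Lrat both kept their calls in 2 of the 9 fits. Of all genes tested, 2.43% fell. The Kupffer list had a median of -0.30, with 5 of 14 fold changes positive. The matrix and stellate list had a median of 0.23, with 17 of 24 positive, so Lrat went against most of its list. The 5 tested red blood cell genes had a median of -1.01 with none called, and the median was -0.28 without DEN_SOR 2, -0.67 without Untreated 5 and -1.58 without DEN_SOR 4. The imprinted RNA Meg3 had 2.78, 3.03, 5.69 and 10.3 FPKM in DEN_SOR livers and 0.482 to 0.915 FPKM in Untreated livers (1.83, adjusted p = 0.0324), with its call kept in 1 of the 9 fits. All 13 mitochondrially encoded genes had positive fold changes (median 0.60) and none passed. Without DEN_SOR 4, the library with 34.8% mitochondrial reads, 8 of the 13 were positive and the median was 0.02. The values stood beside 28 nuclear genes of the respiratory chain with a median of -0.28 and none called.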
